A study of Mus musculus with 18 samples.

Results

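The type 2 CC chemokines examined here were *Ccl24*, *Ccl11*, *Ccl17*, *Ccl22* and *Ccl8*, 5 genes of the 54446 in the count table. They were taken by name, as the entries whose Ensembl identifier maps to these symbols, and the names were chosen with earlier results of these data known. Chemokines are small secreted proteins that steer leukocytes through G protein-coupled receptors, and CC chemokines share a pair of adjacent cysteines. CCL24 and CCL11 are eotaxins, which attract eosinophils through CCR3. CCL17 and CCL22 bind CCR4 on Th2 and regulatory T cells, and mouse CCL8 binds CCR8 on Th2 cells. In macrophages and dendritic cells these genes are known for their induction by IL-4 and IL-13, which signal through IL-4Rα and STAT6.

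The study asked how apoptotic cells (ACs) act on Type 1 and Type 2 activation of eosinophils. Peritoneal eosinophils of Il5Tg mice (NJ.1638), labelled as strain C57BL/6, were cultured for 18 h with 5 ACs per eosinophil. The Il5 transgene, carried by the mice of every group, gives them an excess of eosinophils. The ACs were thymocytes killed with dexamethasone, and the eosinophils were purified again on Siglec-F beads before RNA extraction. The Type 1 experiment had the groups IFN-γ + ACs, E. coli + ACs, IFN-γ + E. coli + ACs and, as their control, ACs alone. The IL-4 experiment compared IL-4 + ACs with its own ACs group. Which ACs group belongs to which experiment was inferred from 2 naming series in the sample descriptions. Each of the 6 groups had 3 libraries. Every group received ACs, and cultures lacking them were not used here. The labels give no age, sex or dose. For the study's figure on ACs against non-activated eosinophils, the lanes are described as eosinophils of different mice. For the other stimuli its captions speak only of different samples. The spread between libraries is read as that between mice, and p-values measure only this spread, although the labels do not name the animals. Whether 1 mouse gave cells to several groups is not stated.

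The CEL-Seq2 protocol reads transcripts from their 3′ end, and a level below is a normalized count (reads divided by the size factor of the library). Reads on genes ranged from 779421 to 7782072 per library, and the shallowest were both libraries numbered 3 in the IL-4 experiment, with 849705 reads for IL-4 + ACs and 779421 for ACs. In those libraries 3 reads, the upper limit that a count of 0 allows, stood for 15.4 and 16.1 normalized counts, against 1.58 to 6.16 in the other libraries. These limits cover counting error only. *Siglecf*, *Ccr3*, *Alox15* and *Gata1*, markers of eosinophils, were present in all libraries, whereas *Epx*, which encodes eosinophil peroxidase, was near 0, with group means of 0.46 to 14.1.

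The promoters of *Ccl17*, *Ccl8* and *Ccl22* are shown as context for the responses of these genes below. Sequences are from RefSeq on GRCm38.p6, 5′ to 3′ on the + strand, which carries each of these genes, and 3 of the 5 members were matched. Each ends at the base before the annotated start of the gene (GENCODE M21), and capitals mark motif matches. The *Ccl22* stretch has 156 bases and the others 250, since the RefSeq start of *Ccl22* lies downstream of that annotated start. The shares below are over 250 bases, more than the printed *Ccl22* stretch.

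Ccl17, chr8:94810203-94810452: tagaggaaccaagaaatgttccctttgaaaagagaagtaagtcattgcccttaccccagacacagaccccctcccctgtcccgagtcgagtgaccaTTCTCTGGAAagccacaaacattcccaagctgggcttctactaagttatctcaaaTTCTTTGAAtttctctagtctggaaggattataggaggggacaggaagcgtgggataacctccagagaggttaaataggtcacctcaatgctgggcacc

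Ccl8, chr11:82114935-82115184: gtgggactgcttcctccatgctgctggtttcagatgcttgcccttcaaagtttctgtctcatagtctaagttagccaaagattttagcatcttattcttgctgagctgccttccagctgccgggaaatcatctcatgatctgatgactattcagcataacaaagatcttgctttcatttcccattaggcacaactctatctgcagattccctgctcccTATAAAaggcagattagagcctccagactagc

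Ccl22, chr8:94745434-94745589: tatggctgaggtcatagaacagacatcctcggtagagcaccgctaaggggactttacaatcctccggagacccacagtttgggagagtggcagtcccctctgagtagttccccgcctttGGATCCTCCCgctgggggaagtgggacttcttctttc

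In the *Ccl17* promoter the capitals are TTCTCTGGAA, a match to the STAT6-type motif TTCNNNNGAA from -154 to -145 of the start, and TTCTTTGAA, a match to the GAS motif TTCNNNGAA from -99 to -91. In the *Ccl8* promoter they are the TATA motif TATAAA from -32 to -27. In *Ccl22* they are GGATCCTCCC, which on the - strand reads as the kB-type motif GGGANNNNCC. Both strands were searched, also for the ISRE-type motif GAAANNGAAA, which had no match in these windows. Of 32851 promoters cut to 250 bases, 5.85% held the STAT6-type motif, 7.02% the GAS motif, 17.6% the kB-type, 12.4% the TATA and 2.98% the ISRE-type. A match describes the letters of the window and is neither a binding site nor a cause.

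Among the members, *Ccl24* and *Ccl8* rose with IL-4, and *Ccl17*, *Ccl8* and *Ccl22* rose with IFN-γ. E. coli alone, and IFN-γ with E. coli, moved none of them past the threshold, which was an adjusted p under 0.05 with limma and a change of at least 1.5-fold. With IL-4 + ACs, 2 of the 3 members tested were past it, both higher, where 0.74% of 10669 genes passed higher and 0.347% lower. With IFN-γ + ACs, 3 of 4 were past it, all higher, where 11.4% of 10166 genes passed higher and 9.96% lower. Genes were tested from a mean of 10 normalized counts over the libraries of a fit. *Ccl8* reached that mean in the IL-4 fit, and *Ccl17* in the Type 1 fit, only through the group where they were high, so these counts do not support a trend of the members. *Ccl11* was below it everywhere, and *Ccl17* was below it in the IL-4 experiment. In such bulk samples, fewer cells of a type and less RNA per cell cannot be told apart.

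**Figure D1:**
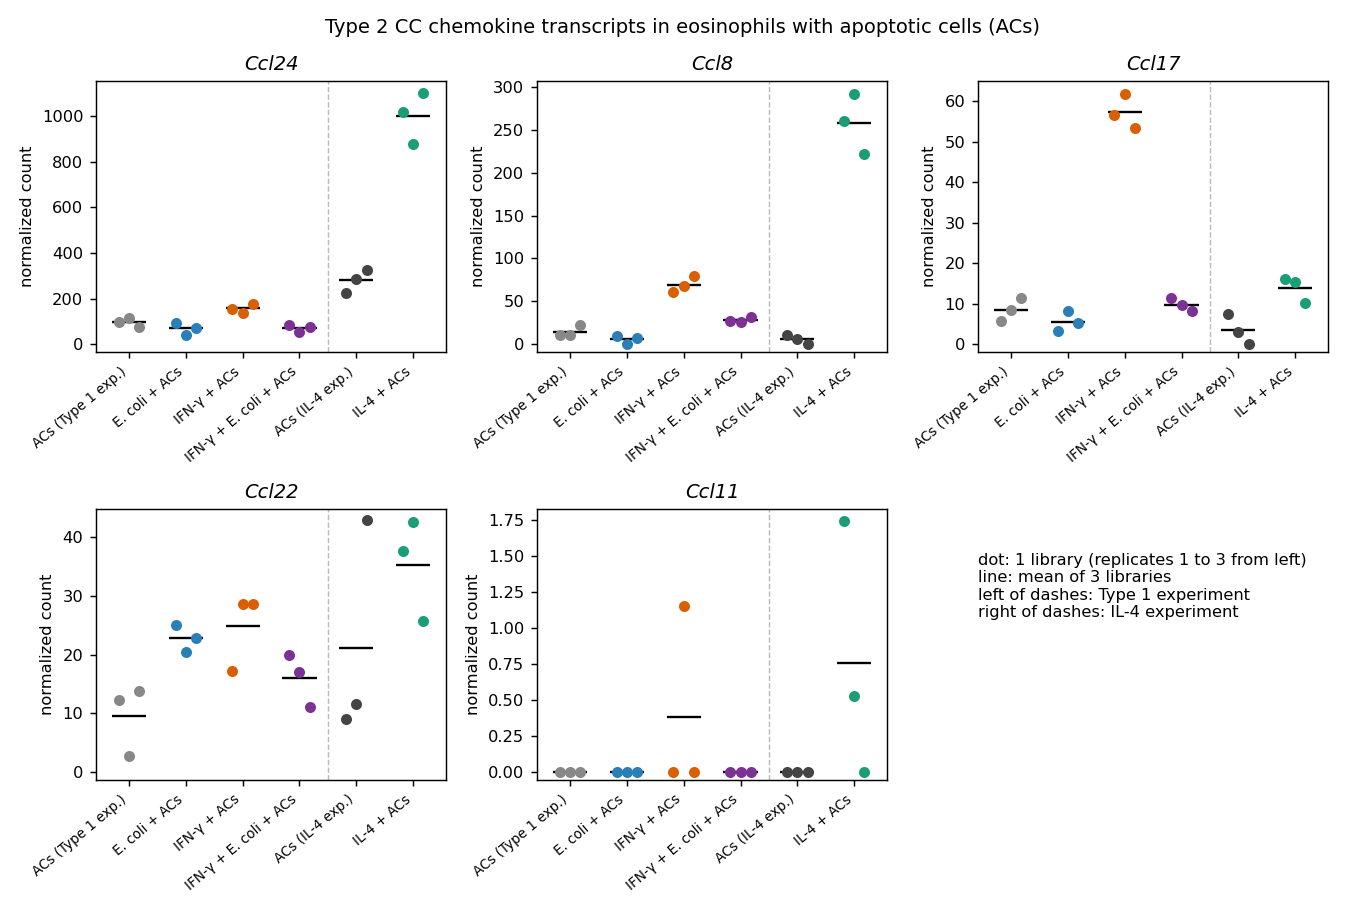
Normalized counts of the 5 members, with 1 dot per library (3 per group), a line at the group mean and a separate linear y axis for each gene. Ccl24 and Ccl8 were highest in the 3 IL-4 + ACs libraries (878 to 1099.9 and 221 to 292), Ccl17 in the 3 IFN-γ + ACs libraries (53.4 to 61.9), and Ccl11 was at or near 0.

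*Ccl24* (ENSMUSG00000004814.10) lies on the - strand of chr5:135569937-135573049 (GRCm38). Its product, eotaxin-2, is a ligand of CCR3. In the IL-4 experiment it had 226, 286 and 327 normalized counts in the ACs libraries and 1017, 878 and 1099.9 with IL-4 + ACs. The ranges were apart, and the lowest library with IL-4 lay far above the highest without. The mean rose from 280 ± 50.6 (SD, n = 3) to 999 ± 112, a ratio of 3.57, and the log2 fold change was 1.84 ± 0.17 (SE, limma adjusted p = 0.00065), the 95th largest rise of the 10669 genes. These means rest on 729 and 3637 reads.

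In the Type 1 experiment *Ccl24* was at 99.2, 115 and 75.9 normalized counts with ACs alone and at 156, 139 and 179 with IFN-γ + ACs. All IFN-γ libraries were above all ACs libraries, but the log2 fold change of 0.71 ± 0.26 (SE) missed the threshold (limma adjusted p = 0.053, 95% interval 0.16 to 1.27). That call depended on the fit: edgeR and DESeq2 on the recovered reads gave 0.67 and 0.68 with adjusted p of 0.047 and 0.041. With E. coli + ACs the libraries were at 94.6, 41.7 and 73.0, overlapping ACs alone, with a log2 difference of -0.52 ± 0.26 (SE, limma adjusted p = 0.22). With IFN-γ + E. coli + ACs they were at 82.7, 53.8 and 75.9, which also overlapped ACs alone. Against IFN-γ + ACs the combination was lower, without overlap, by a log2 fold change of -1.16 ± 0.26 (SE, limma adjusted p = 0.0042). In order of its means *Ccl24* therefore ran from 158 with IFN-γ, through 96.8 with ACs, to 70.8 with the combination and 69.8 with E. coli, and the only neighbours in that order with separate ranges were IFN-γ and ACs.

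*Ccl24* was also higher in the ACs libraries of the IL-4 experiment than in those of the Type 1 experiment. The log2 difference was 1.53 ± 0.20 (SE, limma adjusted p = 0.00066), in a comparison where 10.7% of 10592 genes were higher and 8.53% lower. Both groups were eosinophils with ACs alone, and the experiment and any difference between the mice or the runs cannot be told apart. *Ccl24* was the 1 of 3 tested members past the threshold there. *Ccl22* differed by 0.97 ± 0.73 (SE, limma adjusted p = 0.37) and *Ccl8* by -1.73 ± 0.93 (SE, limma adjusted p = 0.21). As planned from the 2 naming series, each stimulus is set against the ACs of its own experiment.

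*Ccl11* (ENSMUSG00000020676.2, chr11:82057823-82062955, + strand) encodes eotaxin-1, the other CCR3 ligand of the set. It was at 0 in 15 of the 18 libraries, and had 1 read with IFN-γ + ACs and 4 reads with IL-4 + ACs. The 3 values above 0 were 1.15 normalized counts in IFN-γ + ACs replicate 2, and 1.74 and 0.53 in IL-4 + ACs replicates 1 and 2. None exceeded 3 reads, so no level was detectable at this depth and no fold is given. *Ccl11* is known as a product of fibroblasts and epithelial cells. The summed fibroblast and mesothelial markers were highest in both libraries numbered 3 in the IL-4 experiment, at 329 and 252 normalized counts, where the depth allows no statement on *Ccl11*.

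*Ccl8* (ENSMUSG00000009185.2) lies on the same chromosome, at chr11:82115185-82116799 on the + strand. In the ACs libraries of the IL-4 experiment it had 11.3, 6.23 and 0 normalized counts, and with IL-4 + ACs it had 260, 292 and 221. Every library with IL-4 was far above every library without it. The mean rose from 5.84 ± 5.65 (SD, n = 3) to 258 ± 35.5, or from 23 to 1046 reads, a ratio of 44.1. The log2 fold change was 5.85 ± 0.76 (SE, limma adjusted p = 0.0057), the 4th largest rise of all genes tested, and it ranged from 4.77 to 6.58 when libraries were left out in turn. The ACs value of 0 lay in the shallowest library, where 3 reads stood for 16.1 normalized counts. The sizes of the ratio, of the change and of its rank are therefore uncertain, although each IL-4 library lay above 16.1.

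IFN-γ also raised *Ccl8*. The gene was at 10.6, 11.3 and 22.0 normalized counts with ACs alone in the Type 1 experiment and at 60.7, 67.6 and 80.0 with IFN-γ + ACs. The groups did not overlap, and the log2 fold change was 2.24 ± 0.52 (SE, limma adjusted p = 0.0033), a ratio of means of 4.75. With E. coli + ACs it was at 10.1, 0.82 and 7.92, each below the lowest ACs library, with a log2 difference of -1.40 ± 0.52 (SE, limma adjusted p = 0.088) that missed the threshold. Leaving out E. coli + ACs replicate 1 made it -1.88, past the threshold (limma adjusted p = 0.037). With IFN-γ + E. coli + ACs the libraries stood between those groups, at 27.1, 25.7 and 31.7. They were above all E. coli + ACs libraries, by a log2 fold change of 2.36 ± 0.52 (SE, limma adjusted p = 0.0027), and below all IFN-γ + ACs libraries, by -1.27 ± 0.52 (SE, limma adjusted p = 0.097). The latter difference was past the threshold with edgeR (adjusted p = 0.034) and DESeq2 (adjusted p = 0.012). Against ACs alone the combination differed by 0.97 ± 0.52 (SE, limma adjusted p = 0.15), a call made only without E. coli + ACs replicate 2 (limma adjusted p = 0.036). The order of the means was thus IFN-γ at 69.4, the combination at 28.2, ACs at 14.6 and E. coli at 6.26, with no overlap between any neighbours.

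*Ccl17* (ENSMUSG00000031780.2, chr8:94810453-94812036, + strand), also called TARC, is a CCR4 ligand. It was at 5.69, 8.45 and 11.4 normalized counts with ACs alone in the Type 1 experiment and at 56.7, 61.9 and 53.4 with IFN-γ + ACs. The groups were far apart and the IFN-γ libraries close together. The mean rose from 8.52 ± 2.87 (SD, n = 3) to 57.3 ± 4.31, a ratio of 6.73, with a log2 fold change of 2.66 ± 0.44 (SE, limma adjusted p = 0.00013). That was the 92nd largest rise of 10166 genes.

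E. coli + ACs left *Ccl17* at 3.35, 8.18 and 5.28 normalized counts, which overlapped ACs alone (log2 difference -0.55 ± 0.44, SE, limma adjusted p = 0.48). With IFN-γ + E. coli + ACs it was at 11.4, 9.77 and 8.28, again overlapping ACs alone, and the log2 difference was 0.22 (95% interval -0.69 to 1.13). The combination was below IFN-γ + ACs in every library, by a log2 fold change of -2.44 ± 0.44 (SE, limma adjusted p = 0.00057). In order of its means *Ccl17* ran from 57.3 with IFN-γ to 9.82 with the combination, 8.52 with ACs and 5.60 with E. coli, and only the first of these was apart from its neighbour.

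In the IL-4 experiment *Ccl17* was at 7.52, 3.11 and 0 normalized counts with ACs and at 16.2, 15.3 and 10.3 with IL-4 + ACs. All libraries with IL-4 were above all without, on 59 and 14 reads, and the means of 13.9 and 3.54 gave a ratio of 3.93. The 0 lay in the library where 3 reads stood for 16.1 normalized counts, and the 10.3 was 2 reads. With a mean under 10 *Ccl17* was not in the fit. A two-sided exact permutation test gave p = 0.10, the smallest that 3 against 3 allows, and a fit of all genes with any value above 0 gave a log2 difference of 2.17 ± 1.1 (SE, limma adjusted p = 0.81).

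*Ccl22* (ENSMUSG00000031779.3, chr8:94745590-94751699, + strand), also called MDC, is the other CCR4 ligand and lies near *Ccl17*. With ACs alone in the Type 1 experiment it was at 12.2, 2.82 and 13.9 normalized counts, with IFN-γ + ACs at 17.2, 28.7 and 28.7, and with E. coli + ACs at 25.1, 20.4 and 22.9. Both stimuli were above ACs without overlap. IFN-γ raised it by a log2 fold change of 1.47 ± 0.48 (SE, limma adjusted p = 0.028), a ratio of means of 2.58. This call rested on few reads, 35 with ACs and 52 with IFN-γ, and was lost without ACs replicate 2 (log2 0.85, limma adjusted p = 0.17), IFN-γ replicate 2 (1.35, limma adjusted p = 0.089) or IFN-γ replicate 3 (1.35, limma adjusted p = 0.081). E. coli changed it by 1.39 ± 0.48 (SE, limma adjusted p = 0.064), which missed the threshold but passed it without ACs replicate 3 (1.74, limma adjusted p = 0.046). With the combination the libraries were at 19.96, 17.1 and 11.04, overlapping ACs alone (log2 difference 0.87 ± 0.48, SE, limma adjusted p = 0.16). In order, the means were 24.8 with IFN-γ, 22.8 with E. coli, 16.0 with the combination and 9.63 with ACs, and IFN-γ and E. coli overlapped, as did the combination and ACs.

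With IL-4 + ACs, *Ccl22* was at 37.7, 42.7 and 25.7 normalized counts, and with ACs in that experiment at 9.02, 11.7 and 42.9. The groups overlapped through ACs replicate 3, where 42.9 normalized counts were 8 reads in the shallowest library. The log2 difference was 1.01 ± 0.57 (SE, limma adjusted p = 0.61, 95% interval -0.26 to 2.27). Without the replicate 3 libraries of both groups it was 1.87 (limma adjusted p = 0.0054), past the threshold, with 2 libraries left in each group. In that setting 3 members passed in place of 2, and the genes past the threshold among all tested were 345 higher and 311 lower in place of 79 and 37.

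**Figure D2:**
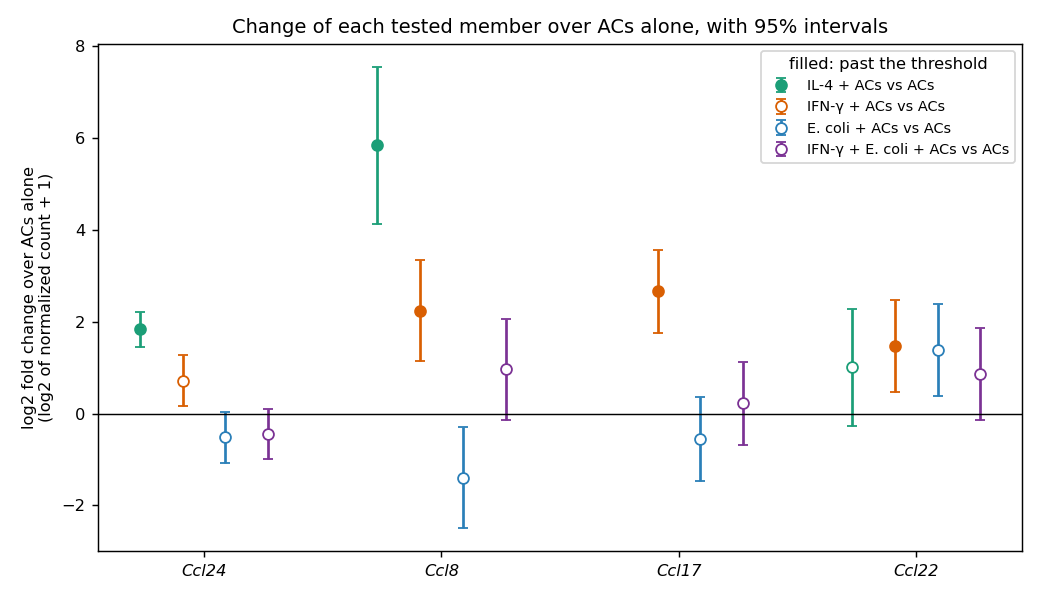
Log2 fold change over the ACs libraries of the same experiment for each tested member (points) with its 95% interval (bars), for the 4 stimuli, with filled points past the threshold. Ccl24 (1.84) and Ccl8 (5.85) were past it with IL-4, Ccl17 (2.66), Ccl8 (2.24) and Ccl22 (1.47) with IFN-γ, and none with E. coli or the combination. Ccl11, and Ccl17 with IL-4, were not tested.

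Over the members, E. coli + ACs moved 0 of the 4 tested past the threshold with limma, where 5.05% of genes passed higher and 5.25% lower. At an unadjusted p under 0.05 there were 2, *Ccl22* and *Ccl8*, in opposite directions, and edgeR and DESeq2 called 0. The share of all genes at that unadjusted p is not given, here or below, so such counts are not read as a result. With IFN-γ + E. coli + ACs, 0 of 4 passed against ACs alone with limma, edgeR or DESeq2, and 0 at an unadjusted p under 0.05, in the comparison where 14.7% of genes passed higher and 17.2% lower. Against IFN-γ + ACs, the combination was lower for 2 of 4 members, *Ccl17* and *Ccl24*, where 8.61% of genes were lower and 5.96% higher. *Ccl17* was in this fit only through its level with IFN-γ + ACs, so this count does not support a trend of the members. Against E. coli + ACs it was higher for 1 of 4, *Ccl8*, where 9.79% were higher and 9.57% lower.

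IFN-γ + ACs against E. coli + ACs gave a higher level for 3 of 4 members, where 9.84% of genes were higher and 6.72% lower. This count too includes *Ccl17*, tested only through its level with IFN-γ + ACs, and does not support a trend of the members. The log2 differences were 3.63 ± 0.52 for *Ccl8* (SE, limma adjusted p = 4.2e-05), 3.21 ± 0.44 for *Ccl17* (limma adjusted p = 2.1e-05) and 1.23 ± 0.26 for *Ccl24* (limma adjusted p = 0.0021). *Ccl22* did not separate these stimuli, with a difference of 0.09 (95% interval -0.92 to 1.09).

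Whether E. coli changed the response to IFN-γ by more or less than the sum of both effects was tested by their interaction, in which 3.16% of genes were higher and 4.28% lower. With limma 0 of 4 members passed, as with edgeR and DESeq2, and 2 had an unadjusted p under 0.05. The log2 interaction was -1.89 ± 0.62 for *Ccl17* (SE, limma adjusted p = 0.067) and -1.99 ± 0.68 for *Ccl22* (limma adjusted p = 0.08), so both combined levels lay below the sum without passing. With a pseudocount of 5 *Ccl17* passed, at -1.72 (limma adjusted p = 0.018). The interaction of *Ccl24* was -0.64 (95% interval -1.42 to 0.15) and that of *Ccl8* 0.13 (95% interval -1.43 to 1.68), whose sign turned with the pseudocount of 5, edgeR and DESeq2.

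The effect of IL-4 over its ACs was also set against that of IFN-γ over its own. It was larger for 2 of 4 members, where 6.17% of 10414 genes were higher and 8.09% lower. *Ccl8* differed by 3.61 ± 0.97 (SE, limma adjusted p = 0.014) and *Ccl24* by 1.13 ± 0.35 (SE, limma adjusted p = 0.032). The size for *Ccl8* depends on ACs replicate 3 of the IL-4 experiment, a shallow library at 0. The *Ccl24* call was lost on leaving out any of 7 libraries, with differences of 0.99 to 1.3 over all 18. Those libraries were replicates 1 and 2 of ACs and of IFN-γ + ACs in the Type 1 experiment, replicates 1 and 3 of IL-4 + ACs, and replicate 1 of the ACs of that experiment. *Ccl17* differed by -0.49 (95% interval -2.29 to 1.31) and *Ccl22* by -0.47 (95% interval -2.05 to 1.11), intervals wide enough to hold large differences either way.

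Against the effect of E. coli, that of IL-4 was larger for *Ccl8* by 7.24 ± 0.97 (SE, limma adjusted p = 5.8e-05), the largest such difference of 10414 genes, and for *Ccl24* by 2.37 ± 0.35 (SE, limma adjusted p = 0.00018). These were 2 of 4 members, where 1.88% of genes were higher and 2.54% lower. The size and rank for *Ccl8* depend on that ACs library at 0 and on E. coli + ACs replicate 2, which had 1 read. *Ccl17* differed by 2.71 ± 0.86 (SE, limma adjusted p = 0.084) and passed without ACs replicate 1 of the IL-4 experiment (3.40, limma adjusted p = 0.02).

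Among the counts of all 21 mouse CC chemokine genes listed, the members were a small share in every library. It was 2.12 to 2.18% with IL-4 + ACs, against 0.584 to 0.842% with ACs in that experiment. In the Type 1 experiment it was 1.1 to 1.258% with IFN-γ + ACs, 0.499 to 0.564% with ACs, 0.482 to 0.635% with the combination and 0.244 to 0.437% with E. coli + ACs. *Ccl24* made up most of this share with IL-4, at 1.53 to 1.72%, and *Ccl8* 0.345 to 0.508%.

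*Ccl11* and *Ccl8* belong to a cluster of monocyte chemoattractants on chromosome 11, in the order *Ccl2*, *Ccl7*, *Ccl11*, *Ccl12*, *Ccl8* and *Ccl1*. The genes on both sides of *Ccl11* rose with IL-4. *Ccl2*, a CCR2 ligand that attracts monocytes, went from 2129, 1782 and 2831 normalized counts to 7812, 6415 and 9612, a log2 fold change of 1.83 ± 0.19 (SE, limma adjusted p = 0.0014). *Ccl7* went from 79.7, 92.6 and 182 to 681, 578 and 982, by 2.71 ± 0.31 (SE, limma adjusted p = 0.0022). *Ccl12* went from 15.0, 13.2 and 32.2 to 94.4, 59.0 and 77.1, by 1.96 ± 0.39 (SE, limma adjusted p = 0.049). None of the 3 overlapped between the groups, while *Ccl11* stayed under the limit of detection and *Ccl1*, at the far end, was at 0 in all 18 libraries.

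With IFN-γ, *Ccl2* rose by a log2 fold change of 1.5 ± 0.17 (SE, limma adjusted p = 1.8e-06) and *Ccl12* by 0.94 ± 0.31 (SE, limma adjusted p = 0.031) beside *Ccl8*, while *Ccl7* had 76.5, 94.0 and 137 normalized counts against 86.2, 59.1 and 55.5 with ACs, a difference of 0.59 that was not called. The effect of IL-4 was larger than that of IFN-γ for *Ccl7*, by 2.11 ± 0.40 (SE, limma adjusted p = 0.00072), but was not shown to differ for *Ccl2* (0.33, limma adjusted p = 0.48) or *Ccl12* (1.02, limma adjusted p = 0.2). With E. coli *Ccl12* fell by 1.19 on the log2 scale (limma adjusted p = 0.015), and *Ccl2* and *Ccl7* were not past the threshold, at 0.29 and 0.50.

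**Figure D3:**
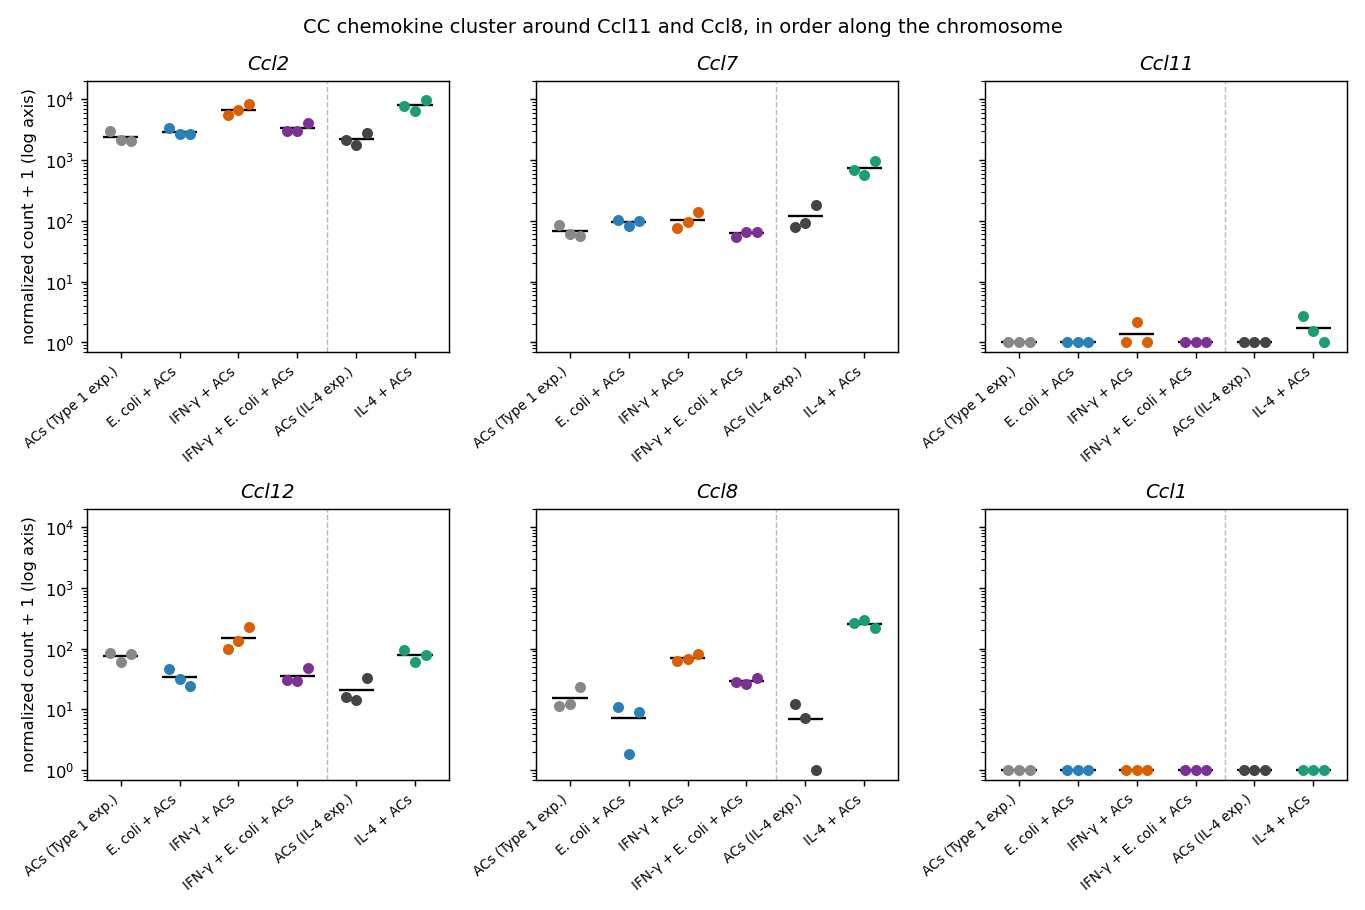
Normalized counts plus 1 on a log axis for the 6 genes of the chromosome 11 cluster, in chromosomal order, with 1 dot per library (3 per group) and a line at the group mean. With IL-4, Ccl2, Ccl7, Ccl12 and Ccl8 lay above ACs in all 3 libraries, and Ccl11 and Ccl1 lay at or near the floor in every group.

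On chromosome 8, *Ccl22* and *Ccl17* flank *Cx3cl1*, which encodes fractalkine and had group means of 0 to 1.05 normalized counts. Beyond *Ccl17* lie *Ciapin1* and *Coq9*, and neither was past the threshold with IFN-γ (0.48, limma adjusted p = 0.061, and -0.35, limma adjusted p = 0.4) or IL-4 (0.66, limma adjusted p = 0.23, and -0.20, limma adjusted p = 0.86). With the combination *Coq9* fell by 0.84 on the log2 scale (limma adjusted p = 0.024). Next to *Ccl24*, the eotaxin gene *Ccl26* was at 0 in all 18 libraries. Of the other neighbours of *Ccl24*, *Por*, which encodes cytochrome P450 oxidoreductase, rose with IFN-γ by 1.17 ± 0.17 (SE, limma adjusted p = 3.8e-05) and with the combination by 0.64 ± 0.17 (SE, limma adjusted p = 0.006), and was at -0.15 with IL-4 (limma adjusted p = 0.76). *Hip1* fell by 2.87 on the log2 scale with the combination (limma adjusted p = 0.00041) and was not called with the other stimuli, and *Rhbdd2* was not called with any of the 4.

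Among the 16 other mouse CC chemokines, 9 were tested. Of all genes, 0.74% passed higher and 0.347% lower with IL-4, and 11.4% and 9.96% with IFN-γ. With E. coli 5.05% passed higher and 5.25% lower, and with the combination 14.7% and 17.2%. The counts of this list and of those below stand beside these shares. With IL-4, 4 rose and none fell, with a median log2 difference of 0.77 over the 9, against -0.01 over all genes. Beside the 3 of the cluster, *Ccl4*, which encodes a macrophage inflammatory protein, rose by 0.93 ± 0.16 (SE, limma adjusted p = 0.025). With IFN-γ, 4 rose and 2 fell (median 0.66, all genes 0.00). *Ccl5*, the gene of RANTES, rose by 1.58 ± 0.15 (SE, limma adjusted p = 1.5e-07), and *Ccl6* and *Ccl9*, CCR1 ligands of myeloid cells, fell by 0.67 and 0.63 on the log2 scale (limma adjusted p = 0.00011 and 0.0004). With E. coli 3 rose and 1 fell (median 0.33). Those that rose were *Ccl4* by 2.60 ± 0.22 (SE, limma adjusted p = 1.1e-07), *Ccl3* by 1.85 ± 0.18 (limma adjusted p = 8.9e-07) and *Ccl5* by 1.01 ± 0.15 (limma adjusted p = 9.3e-05). With the combination 3 rose and 2 fell (median 0.21, all genes -0.05), among them *Ccl3* by 2.18 ± 0.18 (SE, limma adjusted p = 2e-08).

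Of the receptors for the members, *Ccr3*, the receptor of CCL24 and CCL11, was abundant, with group means of 2974 to 4498 normalized counts. It was not called with IL-4 (-0.15 ± 0.13, SE, limma adjusted p = 0.74) or IFN-γ (-0.14 ± 0.11, SE, limma adjusted p = 0.36). With E. coli + ACs (3939 to 4481) and the combination (4005 to 4934) *Ccr3* lay above ACs alone (3211 to 3385) without overlap. These differences were not past the threshold either. *Ccr4*, the receptor of CCL17 and CCL22, and *Ccr8*, that of CCL8, had group means of at most 0.763 and 2.26. Of 9 receptors and decoy receptors listed, 4 were tested. With IL-4, 0 passed with limma, and 1 had an unadjusted p under 0.05. *Ccr2* fell by 1.75 on the log2 scale with IFN-γ (limma adjusted p = 0.025), and *Ccr1* rose by 0.64 ± 0.10 with the combination (SE, limma adjusted p = 3.5e-05).

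Most listed genes of IL-4 and IL-13 receptor signalling were not called with IL-4. Of 14 listed, 13 were tested and 1 rose, where 0.74% of all genes passed higher, and the median was 0.05. The gene that rose was *Cish*, a feedback inhibitor of cytokine signalling (1.03 ± 0.14, SE, limma adjusted p = 0.0063). At an unadjusted p under 0.05 with limma there were 4. *Il4ra*, the shared receptor chain, was at -0.14 and *Stat6* at -0.45, both not called. With IFN-γ, 3 rose and 1 fell, where 11.4% of all genes passed higher and 9.96% lower. *Il13ra1*, the partner of IL-4Rα in the receptor for IL-13, rose by 1.5 ± 0.23 (SE, limma adjusted p = 5.2e-05), *Socs1*, an inhibitor of JAK kinases, by 1.48 ± 0.22 (limma adjusted p = 5.7e-05) and *Il2rg*, the common γ chain, by 1.12 ± 0.14 (limma adjusted p = 6e-06), while the adaptor gene *Irs2* fell by 1.03 (limma adjusted p = 0.00027). With E. coli *Jak2* fell by 0.76 (limma adjusted p = 0.00035) and none rose. With the combination 5 rose and 1 fell, led by *Il13ra1* at 2.49 ± 0.23 (SE, limma adjusted p = 5.9e-08).

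Some genes otherwise known for an IL-4 response in myeloid cells rose with IL-4, as *Ccl24* and *Ccl8* did. Of 21 listed, 19 were tested and 10 rose with IL-4, none fell, and the median was 1.81, against -0.01 over all genes. Among them were *Chil4* and *Chil3*, which encode chitinase-like proteins, with log2 fold changes of 5.09 ± 0.49 (SE, limma adjusted p = 0.00079) and 2.57 ± 0.22 (limma adjusted p = 0.00043). *Pdcd1lg2*, the gene of PD-L2, rose by 4.79 ± 0.80 (SE, limma adjusted p = 0.02), *Ch25h*, an oxysterol-forming hydroxylase, by 2.92 ± 0.32 (limma adjusted p = 0.0018) and the lectin gene *Clec10a* by 2.44 ± 0.18 (limma adjusted p = 0.0002). Listed genes could reach the mean of 10 through IL-4 alone, as *Cd209a* did (means of 25.6 with IL-4 and 1.55 with ACs). The count and median with IL-4 therefore do not support a trend of the list. In the Type 1 experiment 14 of the list were tested, so the medians of the 2 experiments cover different genes. With IFN-γ, 4 rose and 5 fell (median 0.18). The arginase gene *Arg1* rose by 2.06 ± 0.15 (SE, limma adjusted p = 3e-09), *Tgm2*, a transglutaminase, by 3.02 ± 0.13 (limma adjusted p = 2.3e-12) and *Ch25h* by 2.56 ± 0.27 (limma adjusted p = 6.2e-07), whereas the mannose receptor gene *Mrc1* fell by 2.82 (limma adjusted p = 0.00071). With E. coli 1 rose and 4 fell (median -0.21), and with the combination 3 rose and 4 fell (median -0.07).

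Of 6 type 2 cytokines only *Il4* and *Il5* were tested, and the mice carry an *Il5* transgene. *Il4* was not called with IL-4 or any Type 1 stimulus, at 0.19 with IL-4 and -0.34 with IFN-γ. *Il5* rose by 0.69 ± 0.13 with E. coli (SE, limma adjusted p = 0.00095), fell by 0.84 on the log2 scale with IFN-γ (limma adjusted p = 6.1e-05), and was at 0.26 with IL-4, not called.

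Macrophages are a known source of these chemokines, and the summed macrophage markers differed between the groups of the Type 1 experiment. All 12 genes of the list, including *Adgre1*, *Csf1r*, *C1qa* and *Cd5l*, were detected in every group. Their summed level was 15276 to 19139 normalized counts with ACs, 22431 to 31044 with IFN-γ + ACs, 7971 to 9573 with E. coli + ACs and 9458 to 9604 with the combination. The sum had the order of *Ccl24*, highest with IFN-γ and lowest with the E. coli groups. *Ccl22* (means of 22.8 with E. coli and 9.63 with ACs) and *Ccl8* (28.2 with the combination and 14.6 with ACs) departed from it. So did *Ccl17*, whose mean with the combination (9.82) was not below that with ACs (8.52), with overlapping libraries. *C1qc* had the largest mean of the list with ACs (8319) and with IFN-γ (11870). *Adgre1* went otherwise, with means of 1806 with ACs, 2078 with IFN-γ, 2366 with E. coli and 2987 with the combination. With IFN-γ 4 of the 12 were higher and 1 lower than with ACs, and against E. coli + ACs 9 were higher. With the combination 10 were lower than with IFN-γ + ACs. Against ACs, E. coli had 0 higher and 6 lower, and the combination 3 higher and 7 lower. The part of these cells, or of these genes in eosinophils, in the changes of *Ccl17*, *Ccl8*, *Ccl22* and *Ccl24* in that experiment was not tested. The summed eosinophil markers (8 genes) were lowest with IFN-γ + ACs, at 10589 to 12127, against 17136 to 18531 with ACs, 18655 to 19942 with E. coli + ACs and 15762 to 18456 with the combination.

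In the IL-4 experiment the summed macrophage markers overlapped between the groups, while *Ccl24* and *Ccl8* rose. The sum was 17342 to 27776 with IL-4 + ACs and 21010 to 30951 with ACs, with 0 of 12 called higher and 2 lower. Single markers went both ways, with means of 195 and 106 for *Timd4* and 159 and 964 for *Marco* (IL-4 + ACs and ACs). The part of macrophages in the changes of *Ccl24* and *Ccl8* was not tested. The summed eosinophil markers also overlapped, at 24399 to 27284 and 21907 to 24606. Dendritic cell markers (7 genes) overlapped, at 51.4 to 81.1 and 26.5 to 53.6. The sum of 6 neutrophil markers was 113 to 162 with IL-4 and 42.8 to 75.1 with ACs, which was mostly *Cxcr2* (means of 130 and 40.8), while the other 5 had means of at most 6.09 in either group. Mast cell or basophil markers (7 genes) were lower with IL-4, at 10.3 to 14.8 against 25.7 to 29.3. The part of these low levels in the changes was not tested. Thymocyte or T cell markers (10 genes) were at 46.6 to 72.4 and B cell markers (5 genes) at 12 to 46.3 over both groups. In the Type 1 experiment the neutrophil sum was 287 to 389 with E. coli + ACs and 51.6 to 78.3 with ACs, again mostly *Cxcr2* (means of 332 and 52.0). There *Elane* and *Mpo* were at 0 with every stimulus, and *Ly6g* was highest with IFN-γ + ACs, at a mean of 21.6. Dendritic cell markers were at 34.3 to 77.8 in all groups, with *Cd209a*, *Flt3* or *Clec9a* at 0 in each.

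**Figure D4:**
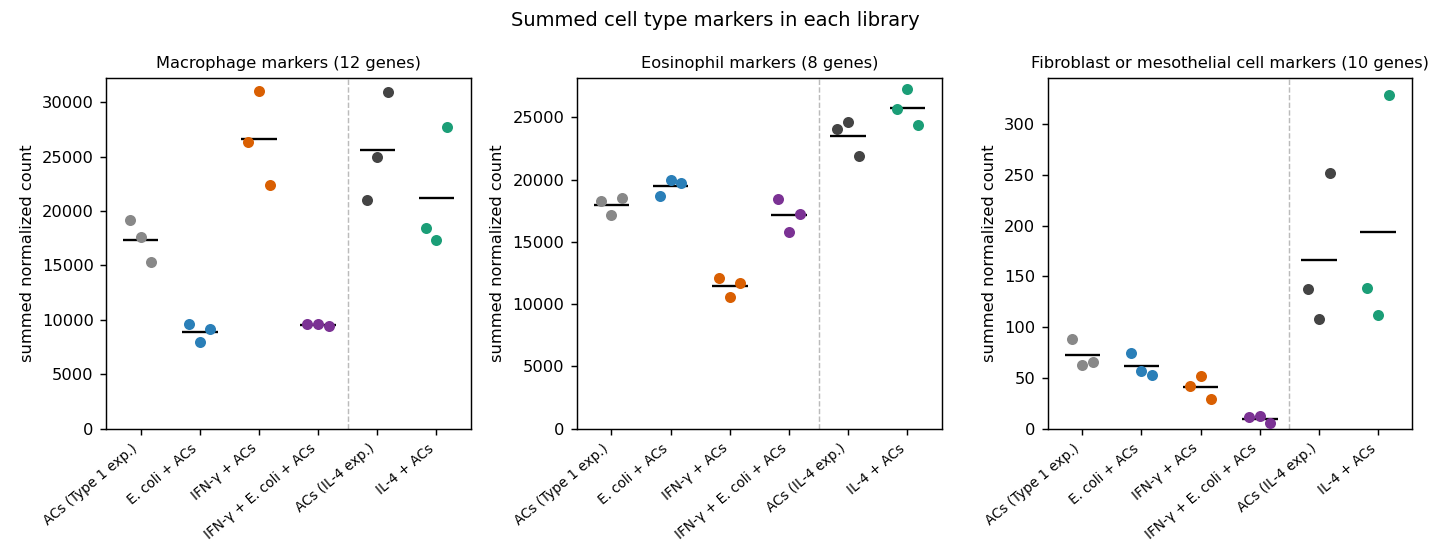
Summed normalized counts of macrophage (12 genes), eosinophil (8 genes) and fibroblast or mesothelial (10 genes) markers, with 1 dot per library (3 per group), a line at the group mean and linear y axes from 0. Macrophage markers were highest with IFN-γ (22431 to 31044) and lowest with E. coli (7971 to 9573) in the Type 1 experiment, and overlapped between IL-4 + ACs and ACs.

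Patterns over the 18 libraries were compared after centring each experiment on its own mean, among 6907 genes, as a description in which libraries share their group and experiment. *Ccl24* and *Ccl8* had a Pearson r of 0.81 with each other, as did *Ccl17* and *Ccl8*, while *Ccl24* and *Ccl17* had 0.64 and *Ccl22* had 0.18 to 0.32 with the other members. The genes most like *Ccl24* were *Rnase2a*, an eosinophil-associated ribonuclease (r = 0.93), *Chil3* (0.92), *Ccl12* (0.87), *Dab2* (0.86) and *Ccl2* (0.85). Of these, *Rnase2a* rose with IL-4 by 2.75 (limma adjusted p = 0.0002) and with IFN-γ by 1.06 (limma adjusted p = 0.02). Genes chosen by r over these libraries tend to share the changes of the member, so such rises are no separate evidence. Those most like *Ccl8* were *Serpina3g* (0.86), *Chil3* (0.83), *Mgl2* (0.81), *Vps26a* (0.81) and *Ccl24* (0.81). *Serpina3g*, a serine protease inhibitor, rose with both cytokines, to means of 106 normalized counts with IL-4 and 178 with IFN-γ. It was also called higher with E. coli (1.06, limma adjusted p = 0.02) and with the combination (4.20, limma adjusted p = 1.5e-09), where *Ccl8* was not called. The genes most like *Ccl17* were *Vps26a* (0.83), *Dnaja1* (0.83), *Ccl8* (0.81), *Plekho1* (0.80) and *Wdfy1* (0.78). For *Ccl22* they were *Adck1* (0.83), *Cdk12* (0.79), *Yipf5* (0.78) and *BC031181* (0.78), none of which was past the threshold with any of the 4 stimuli.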

How the data were processed

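RNA of 18 eosinophil libraries was sequenced by CEL-Seq2. The authors deposited a signal per gene, namely reads divided by a DESeq2 size factor for the library. The submitters' processing notes name cutadapt 1.10, TopHat2 2.1.0, Bowtie2 2.2.6, HTSeq 0.6.1, DESeq2 1.26.0 and GRCm38. The paper's methods describe a second pipeline too, and which one made the table is not given in the sources used here. Mapping of reads from related chemokine genes could not be checked. In every library 100.0% of the values were whole multiples of the value of 1 read (tolerance 0.011), so reads were recovered. Of 54446 identifiers, 54409 matched a symbol with the version ignored. Groups and replicate numbers came from the sample descriptions, and the split into 2 experiments was inferred from their 2 naming series.

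Limma 3.58.1 (R 4.3.3, trended eBayes) was run on each experiment, with values taken as log2(normalized count + 1), for genes with a mean of at least 10. On this scale the change of a low gene depends on the added 1 and on single libraries near 0. Differences between experiments used all 18 libraries or both ACs groups. Calls needed a Benjamini-Hochberg adjusted p under 0.05 over all genes tested and a change of at least 1.5-fold. Alternatives were a pseudocount of 5, no filter, a mean of at least 50, a replicate block, a common upper quartile, edgeR 4.0.16 and DESeq2 1.42.0 on recovered reads, 1 fit of all 18 libraries, and libraries left out. The omission of both replicate 3 libraries of the IL-4 experiment in the comparisons that join the experiments was chosen after seeing the data. The 5 members and all lists were chosen with earlier results of these data known. Named are all members, the most changed called genes of each list (at most 6, with some uncalled genes given as values), the 2 nearest neighbours on each side (for *Ccl11* and *Ccl8* with the whole cluster) and the 5 genes of highest r, apart from some that are not reported here. The fits were tested on simulated data. Tables were handled with Python 3.11.15, pandas 2.3.3, numpy 2.4.6 and scipy 1.17.1, and figures drawn with matplotlib 3.10.9.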

Additional observations from a re-analysis of the deposited data

How the results depend on the processing

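The rises of *Ccl24* and *Ccl8* with IL-4 and of *Ccl17* and *Ccl8* with IFN-γ were past the threshold in every alternative in which the gene was tested. A mean of at least 50 left 1 member, *Ccl24*, tested in the Type 1 fit, so the members past the threshold became 1 with IFN-γ, 1 for the combination against IFN-γ, 0 for the combination against E. coli and 1 for IFN-γ against E. coli. For *Ccl24* with IFN-γ, which was not called at 0.71, a pseudocount of 5 gave 0.69 (limma adjusted p = 0.046), the mean of at least 50 gave 0.71 (0.046), all 18 libraries gave 0.71 (0.04), and edgeR and DESeq2 gave 0.67 and 0.68, each past the threshold. *Ccl22* with IFN-γ lost its call at 1.47 with all genes above 0 (limma adjusted p = 0.067) and in the fit of all 18 libraries (0.052). *Ccl22* with IL-4 gained a call, at 1.87, without both replicate 3 libraries. The interaction gained 1 member with a pseudocount of 5, and the IL-4 effect over that of IFN-γ kept 1 member with all genes above 0, since *Ccl24* had a limma adjusted p of 0.084. The cause of these changes was not tested.

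With replicates left out in turn, the members past the threshold numbered 0 to 1 with E. coli, 0 to 1 with the combination, 2 to 4 with IFN-γ and 1 to 2 for IL-4 over IFN-γ. Log2 values ranged from 0.76 to 1.74 for *Ccl22* and -1.88 to -0.58 for *Ccl8* with E. coli, 0.55 to 0.85 for *Ccl24* and 0.85 to 1.83 for *Ccl22* with IFN-γ, and -0.01 to 0.43 for *Ccl17* and 0.79 to 1.29 for *Ccl8* with the combination. Uncalled values that turned sign were *Ccl24* in the combination against E. coli (-0.03 with the upper quartile, -0.25 to 0.33 with replicates left out), *Ccl22* in IFN-γ against E. coli (-0.03 to 0.32), *Ccl8* in the interaction (-0.30 with a pseudocount of 5, -0.04 with edgeR, -0.02 with DESeq2, -0.69 to 0.61), *Ccl17* in IL-4 over IFN-γ (-1.35 to 0.20) and *Ccl22* in IL-4 over IFN-γ (0.07 with edgeR, 0.39 without both replicate 3 libraries, -0.88 to 0.19) and over E. coli (0.17 with edgeR, 0.03 with DESeq2, 0.48 without both replicate 3 libraries, -0.79 to 0.27).

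The replicate numbers were not taken to pair the libraries, since the deviations of same-numbered libraries correlated by -0.09 to 0.09, although both libraries numbered 3 in the IL-4 experiment were shallow. With the replicate block, *Ccl24* with IFN-γ was past the threshold at 0.71 (limma adjusted p = 0.043), and the genes called with IL-4 were 45 higher and 29 lower in place of 79 and 37. EdgeR on the recovered reads called 127 higher and 85 lower with IL-4, DESeq2 128 and 81, and the fit without both replicate 3 libraries 345 and 311. With IFN-γ edgeR called 1129 and 1098, where limma called 1160 and 1013. The common upper quartile moved the median of all genes to -0.18 with the combination, where 1155 genes were higher and 2200 lower in place of 1494 and 1746. Depth limits *Ccl11*, *Ccl17* and *Ccl22*, which rest on 0 to 151 reads per group. It also limits the size of the changes of *Ccl8*, which had 22 reads with E. coli + ACs and 23 with ACs in the IL-4 experiment.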
